A study of Drosophila melanogaster with 2 samples.

Results

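The genes described here encode the core machinery of autophagy (symbols that begin with Atg and a digit) and the vacuolar ATPase, or V-ATPase (symbols that begin with Vha). They were chosen by symbol alone, and 43 were found among the 11256 genes of the deposited tables, 20 Atg and 23 Vha genes. Another 10 annotated Vha genes, among them Vha44 and Vha100-1, were matched to no accession in the tables and were not analysed here. Of the 15090 accessions, 569 were not matched to a symbol, and whether any of these belongs to such a gene was not tested. Of the members found, 18 Atg and 18 Vha genes had at least 50 reads over both libraries and are called measured.

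Poly(A) RNA was taken from fly heads (Drosophila melanogaster, strain Canton-S, adult females aged 3 to 5 days). In the ethanol group, 15 min of air saturated with ethanol sedated all flies, and a recovery of 30 min in air without ethanol came before freezing. In the control group, the air held no ethanol throughout the 45 min. Heads of about 180 flies were pooled per group for 1 library each, and differences between the libraries therefore stand without replicates. Assigned reads numbered 11.03 M in the ethanol library and 11.76 M in the control library. RNA integrity numbers, a scale of intactness, were 6.40 for the ethanol sample and 6.80 for the control sample.

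In autophagy, a double membrane closes around cytoplasm and carries it to the lysosome for breakdown. The Atg1 kinase complex starts the process, a lipid kinase complex around Atg6 marks the site, Atg2, Atg9 and Atg18 proteins bring lipid, and a pair of ubiquitin-like conjugation systems attach Atg8 to the growing membrane. The V-ATPase is the proton pump that acidifies lysosomes, and in neurons also synaptic vesicles. Its V1 sector in the cytosol splits ATP, and its V0 sector in the membrane moves protons.

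Both families differed little between the libraries. Ratios are given as ethanol over control, after division of each gene's reads by the library total. Each has an exact 95% Clopper-Pearson interval that covers counting error only. The interval takes each read as an independent count. Whether both reads of a pair were counted was not tested. All members under 50 reads had even counts in both libraries, such as 2 and 4 for Atg8b and 0 and 6 for VhaAC39-2. Counting both reads of a pair gives such counts, but odd counts also occurred, such as 39 and 25 for Atg7. If both were counted, the intervals are too narrow. Those with a bound near 1, such as the intervals of Atg3, Atg18b and Vha36-1, could then include it. With a rule of at least 2-fold and an interval that excludes a ratio of 1, 0 of 18 Atg and 0 of 18 Vha genes were called in either direction. Over all 7822 measured genes, that rule called 1.75% higher and 0.741% lower after ethanol. With a milder rule, a log2 ratio of at least 0.322 in size and an interval that excludes a ratio of 1, 2 Atg genes (Atg5 and Atg6) and 2 Vha genes (Vha14-1 and Vha26) were called higher, against a background of 14.1% of all measured genes. By the same rule, 0 Atg genes and 1 Vha gene (Vha36-3) were called lower, against 7.54% of all measured genes. Both families thus had 15 of 18 log2 ratios under 0.322 in size, or 83.3%, beside 71.0% of all measured genes and 83.0% of the 4045 genes with at least 500 reads.

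The direction of the small differences was not the same in the 2 families. Among Atg genes, 14 ratios were above 1 and 4 below, and the median log2 ratio was 0.15, beside 0.049 for all measured genes. Among Vha genes, 9 were above 1 and 9 below, with a median of 0.0043. Over all 7822 measured genes, 4460 ratios were above 1 and 3362 below. Whatever the fold, 6 Atg and 4 Vha genes had an interval above 1, against 23.9% of all measured genes. An interval below 1 was found for 1 Atg and 5 Vha genes, against 15.0% of all measured genes. The members share 1 library per group and are not replicates, and in whole heads fewer cells of a type and less RNA per cell cannot be told apart.

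Of the 4 genes of the Atg1 complex, Atg13, the regulatory partner of the kinase, had the highest ratio. It had 768 reads after ethanol and 695 in the control (log2 ratio 0.24, interval 0.087 to 0.39). The scaffold gene Atg17 had 1955 reads after ethanol and 2211 in the control, a log2 ratio of -0.084 with an interval that included 0 (-0.17 to 0.0041). With the trend of ratio on transcript length removed, Atg17 was at 0.18, so its direction was not kept. The kinase gene Atg1 had 350 ethanol and 390 control reads (-0.063, -0.28 to 0.15). For Atg101, a partner of Atg13, the reads were 954 and 1009 in the ethanol and control libraries, and the log2 ratio was 0.012 (-0.12 to 0.14). The complex as a whole took 365.2 reads per 1000000 (RPM) of the ethanol library and 366.0 RPM of the control library.

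The measured genes of the nucleation step, Atg6 and Atg14, both had ratios above 1. Atg6, the fly homolog of Beclin 1, had 382 reads after ethanol and 313 in the control, 1.30-fold (interval 1.12 to 1.52). Atg14, which brings the lipid kinase to the site, had 626 ethanol and 597 control reads, a log2 ratio of 0.16 (-0.0025 to 0.33). Their summed reads were 1.18-fold higher (1.08 to 1.29). The call of Atg6 by the milder rule was lost with median-of-ratios scaling (log2 ratio 0.316), and it was kept with the other scalings tried.

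Among the genes that supply membrane, the lipid transfer gene Atg2 was the 1 Atg gene with an interval below 1. It had 1691 reads after ethanol and 2076 in the control, a log2 ratio of -0.20 (-0.30 to -0.11). Its transcript, 6229 nt, is among the longest of the family, and with the length trend removed its log2 ratio was 0.056, so this direction rested on the treatment of length. The WD repeat gene Atg18b, whose protein binds phosphoinositides, had 741 ethanol and 701 control reads (0.17, 0.022 to 0.32). Its relative Atg18a had 132 and 113 reads in the ethanol and control libraries (0.32, -0.056 to 0.69). The scramblase gene Atg9 was nearly level, with 1100 reads after ethanol and 1111 in the control (0.079, -0.043 to 0.20).

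The conjugation genes held the most abundant member, Atg8a, and 7 of the 8 measured had ratios above 1, beside 4460 of all 7822 measured genes. Atg8a, the ubiquitin-like protein that coats autophagosomes, had 10222 ethanol and 10376 control reads, which was 45.6% of all Atg reads after ethanol and 45.2% in the control. Its log2 ratio of 0.072 had a narrow interval (0.032 to 0.11). At this depth the difference was larger than counting error but only 1.05-fold, and the log2 ratio was 0.022 with TMM scaling, 0.0073 with median-of-ratios scaling and -0.0032 with the length trend removed. Atg5, the acceptor of Atg12, had 385 reads after ethanol and 318 in the control, 1.29-fold (interval of the log2 ratio 0.15 to 0.59). Atg5 passed the milder rule, a call lost with TMM scaling (log2 ratio 0.319), with median-of-ratios scaling (0.305) and with the length trend removed (0.316). The E2-like gene Atg3 had 1072 ethanol and 1032 control reads (0.15, 0.023 to 0.27).

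For the remaining conjugation genes the intervals included a ratio of 1. Atg7, the E1-like enzyme that both conjugation systems need, had the highest ratio of the measured Atg genes, 1.66-fold, but on 39 ethanol and 25 control reads (0.982 to 2.87). With the trend of ratio on level removed, the log2 ratio of Atg7 was 0.79 against 0.73 without, and its interval then lay above 0, so whether Atg7 was called depended on that setting. Atg12, the ubiquitin-like partner of Atg5, had 289 and 270 reads in the ethanol and control libraries (log2 ratio 0.19, -0.053 to 0.44). Of the protease genes that process Atg8, Atg4b had 380 ethanol and 353 control reads (0.20, -0.013 to 0.41). The other, Atg4a, had 1082 ethanol and 1096 control reads (0.075, -0.048 to 0.20). Atg10, the E2-like enzyme for Atg12, was the 1 measured conjugation gene below 1, with 232 ethanol and 254 control reads (-0.037, -0.30 to 0.22).

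Atg16 and Atg8b were under the floor. Atg16, the partner of the Atg12-Atg5 conjugate, had 12 reads after ethanol and 6 in the control, on 3 of its 4 annotated transcripts. Atg8b, the Atg8a paralog, had 2 and 4 reads in the ethanol and control libraries. Exons of Atg4a, Atg4b, Atg10, Atg12 and Atg14 overlap those of another gene in the annotation, and without knowing whether strand was used, reads of such pairs cannot be told apart.

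**Figure D1:**
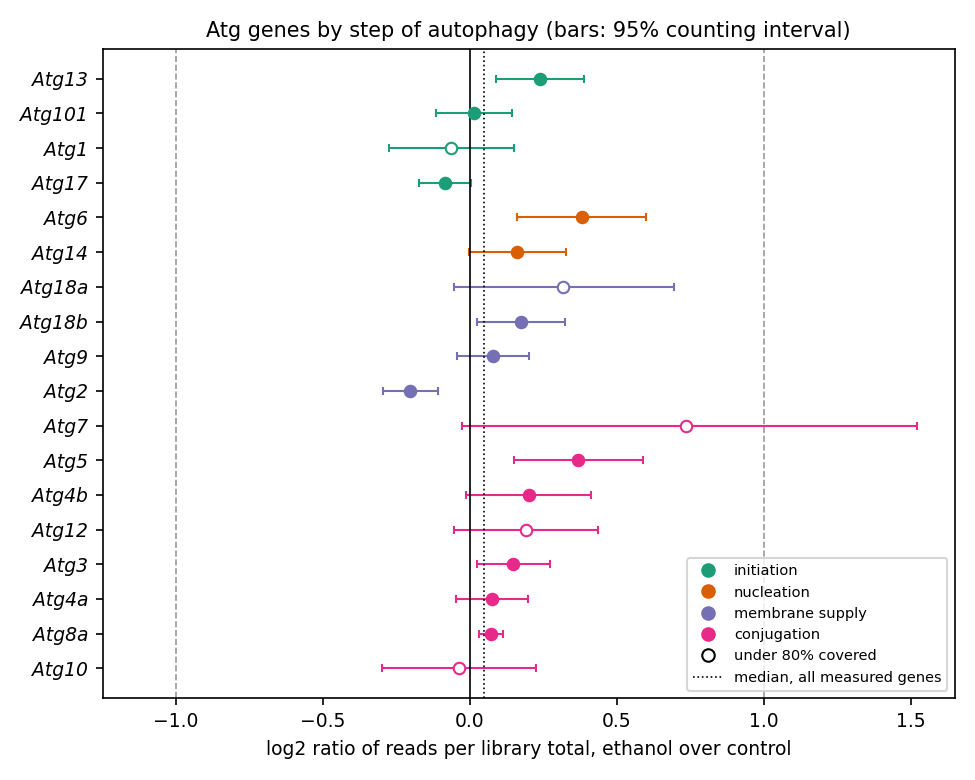
Log2 ratio of reads per library total (ethanol over control, x axis) for the 18 measured Atg genes, coloured by step, with 95% counting intervals. Dashed lines mark 2-fold and the dotted line the median of all measured genes (0.049), and open points are genes with no accession covered by at least 80% in both libraries. All 18 points lie between the dashed lines, and 14 lie right of 0.

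Levels within the Atg family spanned a wide range. On the RPKM scale, which divides reads by transcript length and library total, Atg8a stood at 765.4 after ethanol and 728.4 in the control. The next gene, Atg3, stood at 81.0 RPKM after ethanol and 73.1 in the control. In the ethanol library Atg4a, Atg101, Atg12, Atg9, Atg18b, Atg14 and Atg17 followed, at 28.2 to 47.3 RPKM. The same genes lay between 27.2 and 46.4 RPKM in the control library, where Atg2, at 28.3 RPKM, stood above Atg14. Atg1, the kinase gene at the head of the pathway, stood at 7.79 and 8.14 RPKM in the ethanol and control libraries, and Atg7 had the lowest value of the 18, at 1.47 and 0.882. The main Atg1 transcript was covered by only 49.8% after ethanol and 45.4% in the control, and that of Atg7 by 33.0% and 26.7%. The places of both genes in this order are therefore not settled. Atg1, Atg7, Atg10, Atg12 and Atg18a had no accession covered by at least 80% in both libraries, and their levels are less certain for it. The ranks of the 6 most abundant genes were the same in both libraries, apart from Atg4a and Atg101, which stood in opposite order at nearly equal levels.

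The 23 V-ATPase genes found were level as a whole. Their summed reads were 2643 RPM after ethanol and 2655 RPM in the control (0.996-fold, interval 0.980 to 1.01). The log2 ratio of the sum was -0.0064, and the median of the measured genes had the opposite sign, 0.0043. The sums of the sectors differed in sign. Summed reads of the 9 V1 genes, all measured, were 1.05-fold higher (1.03 to 1.07). Those of the 12 V0 genes found, 7 of them measured, were 0.925-fold (0.902 to 0.948). Gene by gene, both sectors were mixed. In V1, 5 ratios were above 1 and 4 below (median log2 ratio 0.030), and in V0, 3 were above and 4 below (median -0.079). On the log2 scale the V1 sum was at 0.067 and the V0 sum at -0.11. TMM and median-of-ratios scaling lowered every log2 ratio by 0.050 and 0.064, so the V1 difference was nearly lost with them and the V0 difference was larger. Whether the sectors differ between flies could not be tested with 1 library per group.

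In V1, Vha26 and Vha14-1 had the highest ratios. Vha14-1 (subunit F) had 2401 reads after ethanol and 1984 in the control, 1.29-fold (1.22 to 1.37). Vha26 (subunit E) had 353 ethanol and 275 control reads, 1.37-fold (1.17 to 1.61). The Vha14-1 call by the milder rule was lost with TMM (log2 ratio 0.318) and median-of-ratios scaling (0.304) and with the length trend removed (0.28), and that of Vha26 was kept in these settings. The main Vha26 transcript was covered by only 14.9% after ethanol and 13.7% in the control, so its ratio rests on a small part. Vha26 also falls outside the settings limited to well-covered genes or to genes of 1 accession. Vha13 (subunit G) had 5335 ethanol and 5243 control reads, a log2 ratio of 0.12 (0.063 to 0.17). The log2 ratio of Vha13 was 0.054 with median-of-ratios scaling and 0.031 with the length trend removed, both below that interval. Vha36-1 (subunit D) had 2535 and 2549 reads in the ethanol and control libraries (0.085, 0.0053 to 0.17).

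The lowest ratio of all 36 measured members was that of Vha36-3, another gene for subunit D. It had 292 reads after ethanol and 454 in the control, 0.686-fold (0.590 to 0.796), and it was called lower by the milder rule under every alternative setting in which it was measured. The other measured subunit D gene, Vha36-1, was near level. Its log2 ratio of 0.085 was 0.035 with TMM scaling, 0.021 with median-of-ratios scaling and 0.0023 with the length trend removed. Vha36-1 was far more abundant per length, at 212.5 and 200.3 RPKM in the ethanol and control libraries, beside 30.2 and 44.0 RPKM for Vha36-3.

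The catalytic hexamer of V1 is built from subunits A and B. Vha68-1 (subunit A) was level, with 4284 ethanol and 4476 control reads (log2 ratio 0.030, -0.031 to 0.091). Its paralog Vha68-2 had 94 and 109 reads in the ethanol and control libraries (-0.12, -0.53 to 0.29). Vha55, the subunit B gene, was lower, with 1590 reads after ethanol and 2089 in the control, 0.812-fold (0.760 to 0.867). Its log2 ratio of -0.30 did not reach the milder rule, but did with each of the other 3 scalings (-0.33 to -0.36) and with the level trend removed (-0.33). VhaSFD (subunit H) had 201 ethanol and 220 control reads (-0.037, -0.32 to 0.25).

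In V0, the genes of the proteolipid ring and of the subunit that caps it had intervals below 1. Vha16-1 (subunit c, the main ring component) had 1748 reads after ethanol and 2230 in the control, 0.836-fold (0.785 to 0.891). VhaPPA1-1 (subunit c'') had 2019 ethanol and 2569 control reads, nearly the same ratio at 0.838-fold (0.790 to 0.889). VhaAC39-1 (subunit d) differed less, with 5474 and 6199 reads in the ethanol and control libraries (0.942-fold, 0.908 to 0.977). None of these 3 passed the milder rule, although Vha16-1 did with median-of-ratios scaling (log2 ratio -0.322).

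The small subunit e genes did not share that direction. VhaM9.7-b had 1545 ethanol and 1553 control reads (log2 ratio 0.086, -0.017 to 0.19), VhaM9.7-c had 385 and 403 (0.027, -0.18 to 0.23), and VhaM9.7-a had 426 and 415 (0.13, -0.067 to 0.33). Vha100-2 (subunit a) had 63 reads after ethanol and 71 in the control, too few to show a difference of this size (-0.079, -0.59 to 0.43). The accessory genes VhaAC45RP, at 338 ethanol and 316 control reads (0.19, -0.035 to 0.42), and VhaAC45, at 62 and 67 (-0.019, -0.54 to 0.50), also had intervals that included 1.

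**Figure D2:**
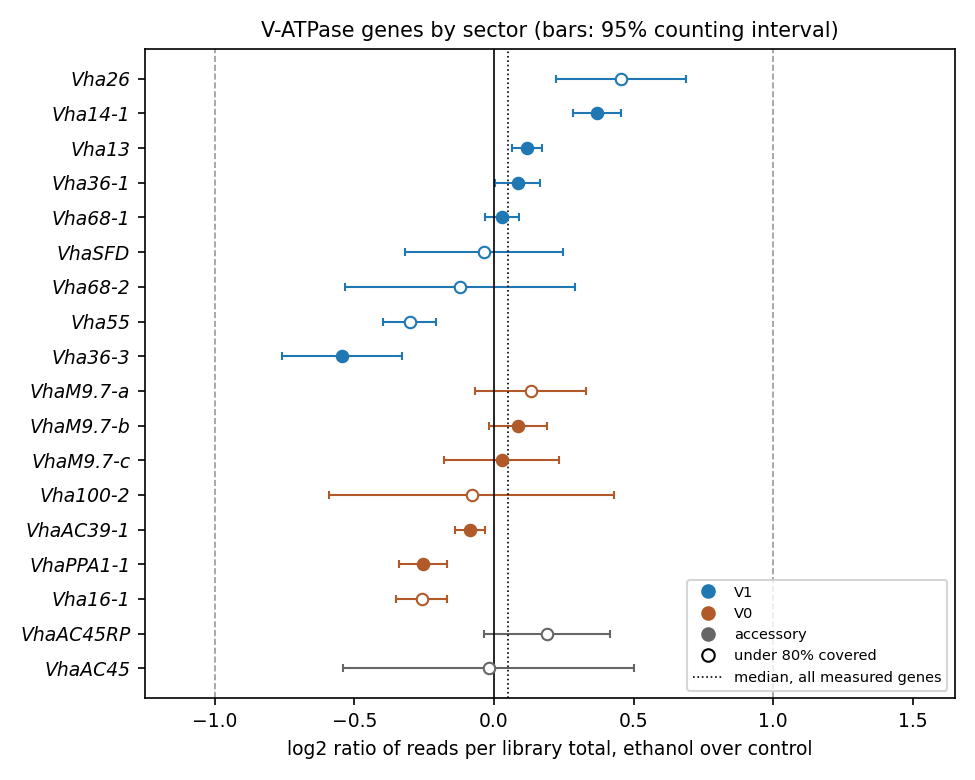
Log2 ratio of reads per library total (ethanol over control, x axis) for the 18 measured V-ATPase genes, grouped by V1, V0 and accessory proteins, with 95% counting intervals. Dashed lines mark 2-fold, the dotted line the median of all measured genes, and open points genes with no accession covered by at least 80% in both libraries. Vha26 and Vha14-1 lie farthest right, at 0.45 and 0.37, and Vha36-3 farthest left, at -0.54.

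The other 5 Vha genes in the tables were nearly silent. Vha100-4 had 2 ethanol and 4 control reads, Vha100-5 had 0 and 2, VhaAC39-2 had 0 and 6, and Vha16-5 and VhaPPA1-2 each had 2 and 0. A count of 0 allows up to 0.272 RPM in the ethanol library and 0.255 RPM in the control library (3 reads, for counting error only). These bounds are higher if both reads of a pair were counted. By contrast, VhaAC39-1, the paralog of VhaAC39-2, was at 496.4 RPM after ethanol and 527.0 RPM in the control. Thus in both libraries nearly all reads of subunit d came from VhaAC39-1 and nearly all reads of subunit c'' from VhaPPA1-1.

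Among V-ATPase genes, Vha13 was the most abundant per length, at 671.0 RPKM after ethanol and 618.2 RPKM in the control. Vha14-1 stood at 332.4 and 257.5 RPKM in the ethanol and control libraries, and VhaAC39-1 at 275.2 and 292.1, so their order was not the same in both libraries. Vha36-1, VhaM9.7-b, Vha68-1 and VhaPPA1-1 lay between 133.7 and 212.5 RPKM after ethanol and between 143.6 and 200.3 in the control. The other well-covered genes, VhaM9.7-c and Vha36-3, were clearly lower: VhaM9.7-c stood at 43.7 RPKM after ethanol and 42.9 in the control.

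**Figure D3:**
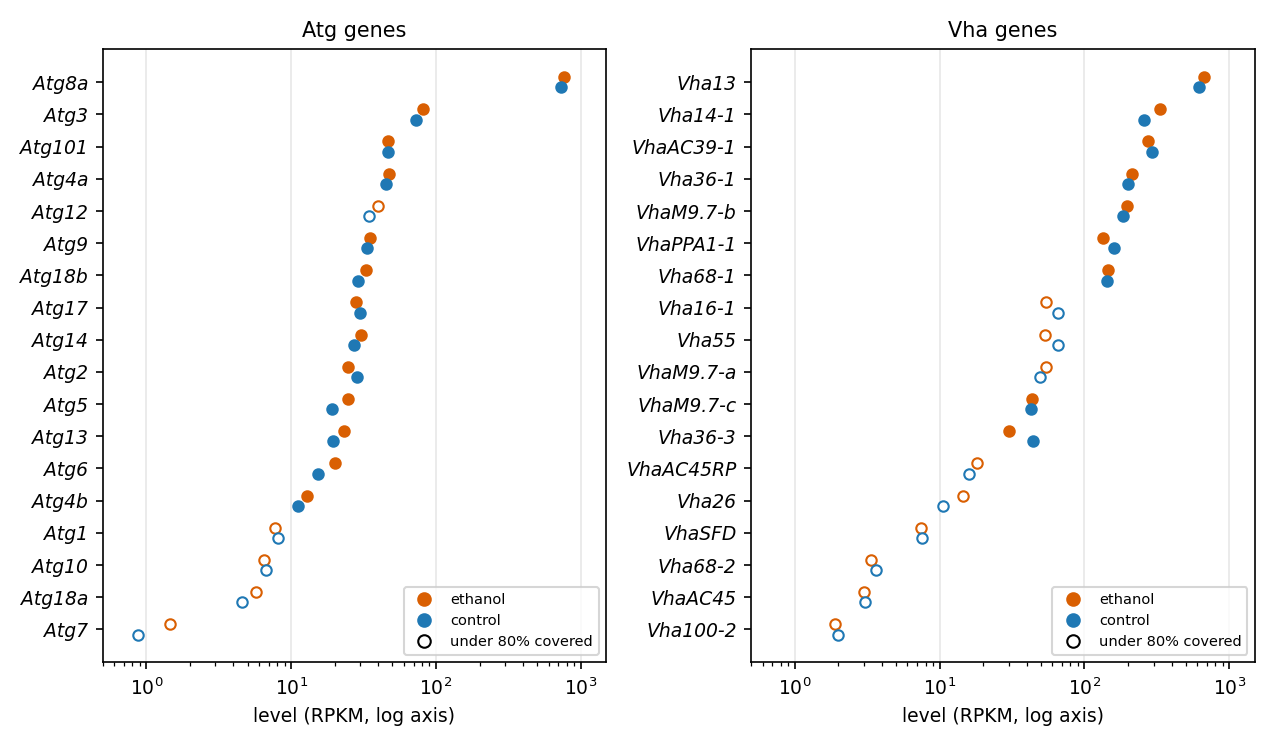
Level in RPKM (log axis) of the 18 measured Atg genes (left panel) and the 18 measured Vha genes (right panel), ordered by mean level, in the ethanol (orange) and control (blue) libraries, 1 library each. Open points are genes with no accession covered by at least 80% in both libraries. Atg8a stands far above the next Atg gene, Atg3, and the paired points of most genes nearly coincide.

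The levels of several members rest on a small part of their transcripts. The header of the authors' files calls the counts unique reads, and a further column gives the percent of each accession covered. How reads shared by transcripts of 1 gene were treated is not stated in the sources used here, and the counts, coverage and RPKM of genes with several transcripts depend on it. Among accessions with at least 50 reads, the 8 of Atg genes with 1 annotated transcript were covered by 97.5% after ethanol and 97.4% in the control (medians). The 10 of Atg genes with several annotated transcripts were covered by 98.4% after ethanol and 97.4% in the control. The 21 of Vha genes with several annotated transcripts were covered by 20.5% after ethanol and 22.5% in the control. These groups go by annotated transcripts, and many of the genes had only 1 accession with reads. In both families, measured genes with more than 1 accession with reads, such as Atg1, Atg10, Atg18a and Vha16-1, had none covered by at least 80% in both libraries. The accession of measured genes with only 1 was so covered, apart from those of Atg7, Atg12 and VhaAC45RP. An accession covered by at least 80% in both libraries was present for 13 of 18 measured Atg genes and 9 of 18 measured Vha genes.

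Vha16-1 shows this most clearly. Its 4 accessions, 2813 to 2978 nt long, had 70 to 1012 reads after ethanol and 56 to 1326 in the control, yet were covered by only 9.24% to 20.4% after ethanol and 8.64% to 14.1% in the control. On the most abundant, NM_057453, 1012 ethanol and 1326 control reads fell on about 309 and 322 nt. RPKM divides by the full length, so levels of Vha16-1, Vha26, Vha55, Vha68-2, VhaSFD, Vha100-2, VhaAC45, VhaAC45RP and VhaM9.7-a cannot be set beside those of the well-covered genes.

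Within genes that had several accessions with at least 50 reads, ratios differed in sign between accessions. For Vha16-1, NM_057453 and NM_165475, which held 57.9% and 30.7% of the gene's ethanol reads and 59.5% and 30.2% of its control reads, had log2 ratios of -0.30 (-0.42 to -0.18) and -0.24 (-0.40 to -0.069). NM_165474 was at -0.34, with an upper bound at 0.00. NM_165476, with 70 ethanol and 56 control reads, was at 0.42 (-0.11 to 0.95), an interval that did not overlap that of NM_057453. For Vha55, NM_057560 held 95.5% of ethanol and 95.9% of control reads and had a log2 ratio of -0.31 (-0.40 to -0.21). The other Vha55 accessions had 33 and 55 reads (NM_001170126) and 39 and 31 reads (NM_169475) in the ethanol and control libraries, with intervals that included 1, and the log2 ratio of NM_169475 was 0.42. The VhaM9.7-a accessions were at -0.0022 (-0.32 to 0.32) and 0.22 (-0.038 to 0.48), and those of VhaAC45 at -0.25 (-1.13 to 0.60) and 0.13 (-0.54 to 0.80). The V1 and V0 sums kept their directions over well-covered genes alone: 1.08-fold for the 5 V1 genes (1.05 to 1.10) and 0.937-fold for the 4 V0 genes (0.912 to 0.964). That restriction was chosen after the data were seen. The genes kept held 14847 of the 17085 V1 reads and 9423 of the 11666 V0 reads of the ethanol library. Their sums are thus largely the full sums again and are no separate check of the direction.

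**Figure D4:**
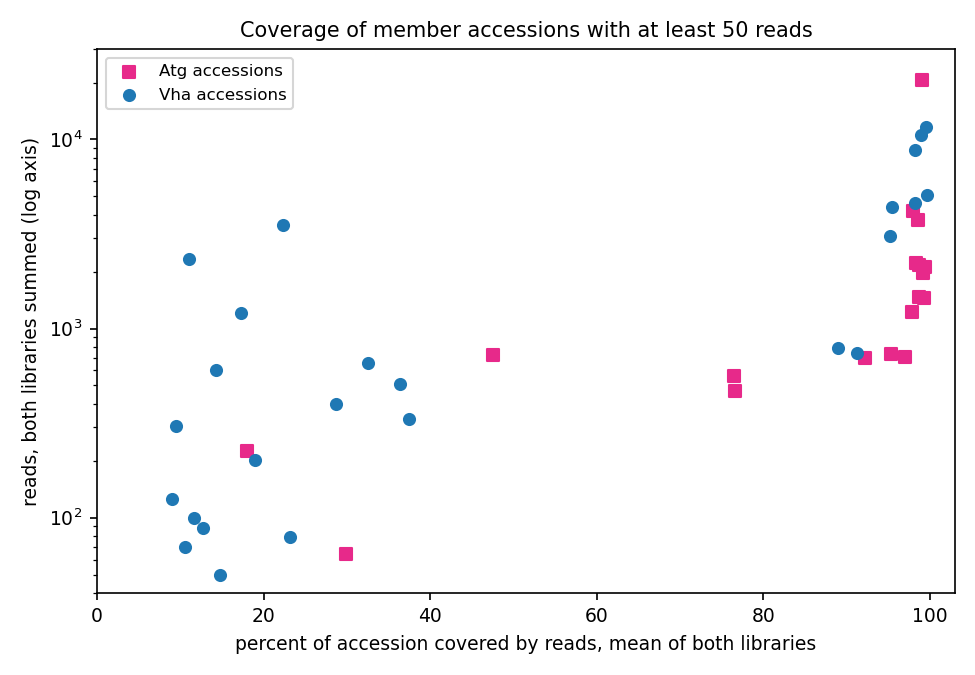
Percent of each member accession covered by reads (x axis, mean of both libraries) against its reads summed over both libraries (y axis, log scale), for Atg (squares) and Vha (circles) accessions with at least 50 reads. Most Vha accessions lie at low coverage on the left, among them the most abundant of Vha16-1 and Vha55, apart from a second group near full coverage that holds most Atg accessions.

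Ratios were lower for longer transcripts, among members and among all genes. Over all measured genes, Spearman's rho between the log2 ratio and length was -0.29 (n = 7822 genes). The median log2 ratio was 0.14 in the shortest of 4 equal groups by length (up to 1194 nt) and -0.091 in the longest (from 3007 nt). Across the 18 Atg genes rho was -0.44, and across the 18 Vha genes -0.50. These values describe genes that share the same 2 libraries and carry no test. RNA integrity also differed between the samples (6.40 in ethanol, 6.80 in control), and its part in the ratios was not tested. With the length trend removed, the median log2 ratio was 0.13 for Atg genes and -0.032 for Vha genes, beside 0.048 for all measured genes.

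**Figure D5:**
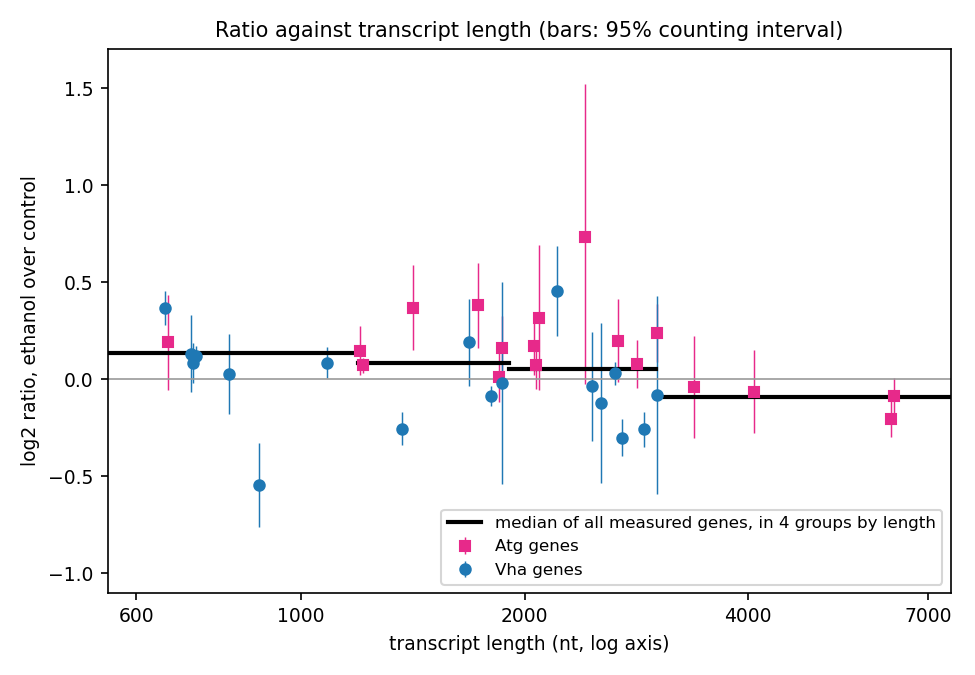
Log2 ratio (ethanol over control, y axis) against transcript length in nt (x axis, log scale) for the measured Atg genes (squares) and Vha genes (circles), with 95% counting intervals. Black bars give the median of all measured genes in 4 groups by length, which is 0.14 in the shortest group and -0.091 in the longest. The longest Atg transcripts, those of Atg2 and Atg17, lie below 0, and Vha36-3 lies far below the bar for its length.

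Other genes of the pathway, from lists written with results of these data already known, also had 0 calls by the 2-fold rule. The milder rule called 14.1% of all measured genes higher and 7.54% lower, and the counts below stand beside those shares. In the list of autophagy genes without an Atg symbol, 1 of 12 measured genes was called higher and 2 lower by the milder rule, and the median log2 ratio was -0.081. TP53INP, whose mammalian relatives bind Atg8 proteins, had 1350 ethanol and 1007 control reads, 1.43-fold (1.32 to 1.55). The BEACH-domain gene bchs (blue cheese) had 643 and 904 reads in the ethanol and control libraries, 0.759-fold (0.685 to 0.840). Its transcript, at about 10610 nt, is the longest of the listed genes, and ratios were lower for longer transcripts. EndoA, an endophilin of the synapse named after its values were seen, was called lower as well (238 ethanol and 323 control reads). The receptor gene ref(2)P, the fly p62, picked out after its values were seen, had 717 ethanol and 888 control reads (log2 ratio -0.22, -0.36 to -0.072).

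V-ATPase assembly and regulatory factors (4 measured) had 0 genes called higher and 1 lower by the milder rule, with a median log2 ratio of -0.14. The lower gene was Rbcn-3A, a rabconnectin subunit that helps to assemble the pump, with 1761 ethanol and 2502 control reads, 0.751-fold (0.706 to 0.798). Its transcript is among the longest of the listed genes, at about 10470 nt. The gene mtd, which encodes a TLDc-domain protein, had 492 ethanol and 584 control reads (-0.15, -0.33 to 0.021), summed over 13 accessions of 23 annotated. ATP6AP2, an accessory protein of the pump named after its values were seen, was level, with 4147 and 4245 reads in the ethanol and control libraries (0.059, -0.0026 to 0.12).

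Most lysosomal genes were not called. Of 17 measured hydrolase genes, 2 were called higher and 2 lower by the milder rule (median 0.050). Sgsh, a sulfamidase, had 105 ethanol and 183 control reads (log2 ratio -0.71, -1.07 to -0.35), and Idua, an iduronidase, had 182 and 127 (0.61, 0.28 to 0.95). Of 10 measured lysosomal membrane genes, 1 was called higher, the cholesterol transporter gene Npc1a (131 ethanol and 97 control reads), and 1 lower, the chloride transporter gene ClC-c (132 and 178), with a median of 0.059. The abundant Lamp1, picked out after its values were seen, had 7640 ethanol and 6915 control reads, 1.18-fold (1.14 to 1.22).

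Genes of membrane fusion with the lysosome (15 measured) had 2 called higher and 0 lower by the milder rule, a share near that of all measured genes (14.1% higher), with a median of 0.11. The 2 genes encode subunits of the HOPS tethering complex, of which dor and Vps39, named after their values were seen, had log2 ratios of -0.20 (-0.43 to 0.027) and 0.10 (-0.16 to 0.37). Vps16A had 360 ethanol and 274 control reads (log2 ratio 0.49, 0.26 to 0.72), and Vps11 had 319 and 264 (0.37, 0.13 to 0.61). Of 27 measured genes of TORC1 and energy sensing, which restrain or start autophagy, 2 were called higher and 1 lower (median 0.022). The called genes were the kinase gene Lkb1, at 0.69 on 59 ethanol and 39 control reads (0.083 to 1.31), SNF4Agamma, a subunit gene of AMPK, at 0.50 on 218 and 164 reads (0.20 to 0.81), and BHD, the folliculin gene, at -0.46 on 132 and 194 reads (-0.79 to -0.14). SNF4Agamma and BHD are named after their values were seen. The amino acid transporter gene slif, at -0.54 on 38 ethanol and 59 control reads (-1.17 to 0.071), was not called. Mitf, the fly homolog of the lysosomal regulator TFEB, picked out for its role after values were seen, had 102 ethanol and 106 control reads (0.038, -0.37 to 0.44). The 7 measured mitophagy genes all had ratios above 1 (median 0.18), beside 4460 of all 7822 measured genes. Of the mitophagy genes 1 was called higher, the receptor gene BNIP3, with 1912 ethanol and 1596 control reads (1.28-fold, 1.20 to 1.37). Pink1 (3 ethanol and 5 control reads) and park (4 and 10), also of the mitophagy list, had too few reads to be measured. Both are named after their values were seen. Marf, a mitofusin, had the largest log2 ratio of that list on few reads (0.56, 29 and 21 reads, -0.30 to 1.44).

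Markers of head tissues were present, and some were lower after ethanol. Summed over the 5 photoreceptor markers, levels were 45220 RPM after ethanol and 50860 RPM in the control, and over 4 fat body markers 171300 and 177700 RPM. Neuron markers (5 listed, 4 measured) summed to 57.3 RPM after ethanol and 62.4 RPM in the control, glia markers (4) to 440.4 and 550.5 RPM, and muscle markers (5) to 957.0 and 1374 RPM. Some markers had few of their annotated transcripts in the tables: brp (3 of 14) had 2 ethanol and 3 control reads, and Mhc (3 of 21) had 28 and 45. How reads shared by transcripts were treated is not stated, so the sums of different tissues cannot be set beside each other. The median log2 ratio of the glia markers had the opposite sign to their sum, at 0.13, since Gs2 (2878 ethanol and 4563 control reads) held most of the sum. Most of the muscle sum was Act79B (8993 ethanol and 14331 control reads). The muscle marker fln went the other way, with 51 ethanol and 24 control reads, and was called higher by the 2-fold rule. These markers are named after their values were seen. Of the 5 markers each for ovary, male reproductive tract and gut, only 2 per tissue were found, so these sums are partial. Ovary markers summed to 2 ethanol and 8 control reads, with bam at 0 after ethanol. Those of the male reproductive tract summed to 38 and 70, with Acp36DE at 0 after ethanol. Gut markers summed to 383 reads after ethanol and 454 in the control. The part of these shifts in the ratios of the Atg and Vha genes was not tested.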

How the data were processed

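Per the file headers, the authors' files give, for each sample and RefSeq accession, a count headed as unique reads, RPKM and the percent of its length covered. The deposited RPKM equalled reads per length and library total, within a relative difference of 1e-06. The authors' table of the series held the same counts for all 15090 accessions, beside a p-value, an FDR score and a log2 ratio of the authors, none of them used. The genome build was given as BDGP 5, per the submitters' processing notes. For aligner, counter and strand use, nothing is given in the sources used here.

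Accessions were matched to Release 6 gene symbols (14521 of 15090), used for names, transcript numbers and exon overlap only, and reads were summed per gene. Ratios, Clopper-Pearson intervals and calls were computed in Python 3.11.15 with scipy 1.17.1, TMM factors in edgeR 4.0.16, lowess trends (fraction 0.3) in statsmodels 0.14.6. Functions were tested on simulated data. The naming rule took all measured Atg genes, the 12 Vha genes with the largest log2 ratios in size plus the 4 most abundant, and of each other pathway list the 2 with the largest, plus any gene past 2-fold. The remaining measured Vha genes were added, and other names are given as chosen after values were seen. Of 167 list entries, 13 had no match. Older symbols of 9 entries were matched by hand after the tables were seen. Members and lists were chosen with earlier results of these data known.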

Additional observations from a re-analysis of the deposited data

How the results depend on the processing

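No paired analysis was possible because each group is 1 library. The 2-fold rule called 0 Atg genes under all alternatives run and 0 Vha genes under all but the removal of the floor, which added VhaAC39-2 (1 gene, on 0 ethanol and 6 control reads). By the milder rule, the 2 higher Atg calls became 1 with TMM scaling and with the length trend removed, 0 with median-of-ratios scaling, and 3 with the level trend removed and on transcript rows. The 2 higher Vha calls became 1 with TMM or median-of-ratios scaling, with the length trend removed, with genes of 1 accession and with well-covered genes (the last chosen after seeing the data). The 1 lower Vha call became 2 with TMM scaling, with totals without the 10 most abundant genes, without a floor, with the level trend removed and on transcript rows, and 3 with median-of-ratios scaling. The log2 ratio of summed Atg reads, 0.059, was 0.0092 with TMM and -0.0051 with median-of-ratios scaling. That of summed Vha reads, -0.0064, was -0.056, -0.071 and -0.031 with TMM scaling, median-of-ratios scaling and totals without the 10 most abundant genes. The cause of these shifts is the scaling itself, which moved the median of all measured genes from 0.049 to -0.0008, -0.015 and 0.024. The median log2 ratio stayed between 0.091 and 0.16 for Atg genes and between -0.060 and 0.058 for Vha genes. Of 36 single genes, 2 changed sign against an interval that excluded 1, both with the length trend removed: Atg2 (0.056) and Atg8a (-0.0032). Depth limits Atg7, Atg18a, Vha100-2, VhaAC45 and Vha68-2, whose intervals each span more than 1.5-fold.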
